A study of Mus musculus with 6 samples.

Results

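The PGC-1 family comprises 3 related transcriptional coactivators, encoded by Ppargc1a, Ppargc1b and Pprc1. The genes described here are these coactivators and 7 factors that act with them: the nuclear receptor genes Esrra, Esrrg, Ppara and Pparg, the DNA-binding factor genes Nrf1 and Gabpa, and Tfam. They were taken by name from a table of 22180 measured genes, and all 10 were found. A gene's probe set is chosen by its highest mean signal over all 6 arrays, but each of the 10 had 1 probe set, so that measure decided nothing here.

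The data are 6 arrays of immortal mouse melanocytes, the pigment cells of the skin. The Sox10LacZ/+; Ink4a-Arf null line, called heterozygous here, was derived from mice of 3 days of age that carry a LacZ insertion in 1 Sox10 allele, and was measured on 3 arrays. The syngeneic line melan-Ink4a-Arf-1 (Cdkn2a tm1RDp/tm1RDp), called wild type here for its intact Sox10 alleles, was measured on the other 3. Both lines lack Ink4a-Arf, were backcrossed to C57BL/6J, and were grown in serum with phorbol ester at 200 nM and cholera toxin at 200 pM. Each genotype is 1 cell line, and the labels do not say whether replicates are separate cultures, so the spread behind each p-value is that of these arrays and may be technical. Cholera toxin raises cAMP, a known inducer of Ppargc1a, and it was present in both lines. Signals are log2 values, so a difference of 1 is a 2-fold change.

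Coactivators of this family do not bind DNA on their own. They dock on nuclear receptors such as the estrogen-related receptors and the PPARs, and on the factors encoded by Nrf1 and Gabpa. There they raise transcription of nuclear genes for respiratory chain subunits and of Tfam. The Tfam protein is imported into mitochondria, where it packages mitochondrial DNA and promotes its transcription. In human melanoma cells the melanocyte master factor MITF is known to drive PPARGC1A, and SOX10 is a known activator of MITF in melanocytes.

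Sox10 had signals of 9.70, 9.70 and 9.79 on the heterozygous arrays, against 9.98, 9.80 and 9.95 on the wild-type arrays. The difference was −0.18 (SE 0.08) and did not pass (limma, adjusted p 0.213). A gene passed where its p, adjusted by Benjamini-Hochberg across the 22180 genes, was under 0.05. Sox10 had 1 probe set, whose place in the transcript is unknown here, so it may not check the insertion. Median signals per array, over all probe sets, were 5.72 to 5.78. Wild-type replicate 2 stood apart: 261 genes lay 2-fold or more away from its fellow arrays, where wild-type replicates 1 and 3 had 22 and 54 such genes and no heterozygous array more than 2. The lines also differed in sex-linked genes, with Xist at 11.06 ± 0.04 against 4.81 ± 0.07 and the Y-linked Uty at 3.97 ± 0.11 against 8.88 ± 0.26 (heterozygous against wild type, SD, n = 3 each), so genotype, line and sex cannot be told apart. Melanocyte markers were bright in both lines, and the mean of 11 of 11 exceeded 5.20, the 40th percentile over probe sets, below which a gene is called dim here.

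Ppargc1a, which encodes PGC-1 alpha, differed most of the 10 genes and was higher in the heterozygous line. Its signal was 9.32, 9.49 and 9.39 on the heterozygous arrays, against 6.42, 7.48 and 6.18 on the wild-type arrays. The lowest heterozygous array was far above the highest wild-type array, and the heterozygous arrays lay close together while the wild-type arrays were spread by wild-type replicate 2. Heterozygous cells averaged 9.40 ± 0.08 and wild-type cells 6.69 ± 0.69 (SD, n = 3 each). The log2 difference was 2.71 (SE 0.29, 95% confidence interval 2.03 to 3.39, adjusted p 0.00057), a 6.54-fold higher signal with an interval of 4.08 to 10.5. Among all 22180 genes it ranked 82 by difference from the highest. Without wild-type replicate 2 the difference was 3.10 (adjusted p 1.9e-06), and it passed when any other array was dropped, at 2.45 to 2.75.

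**Figure D1:**
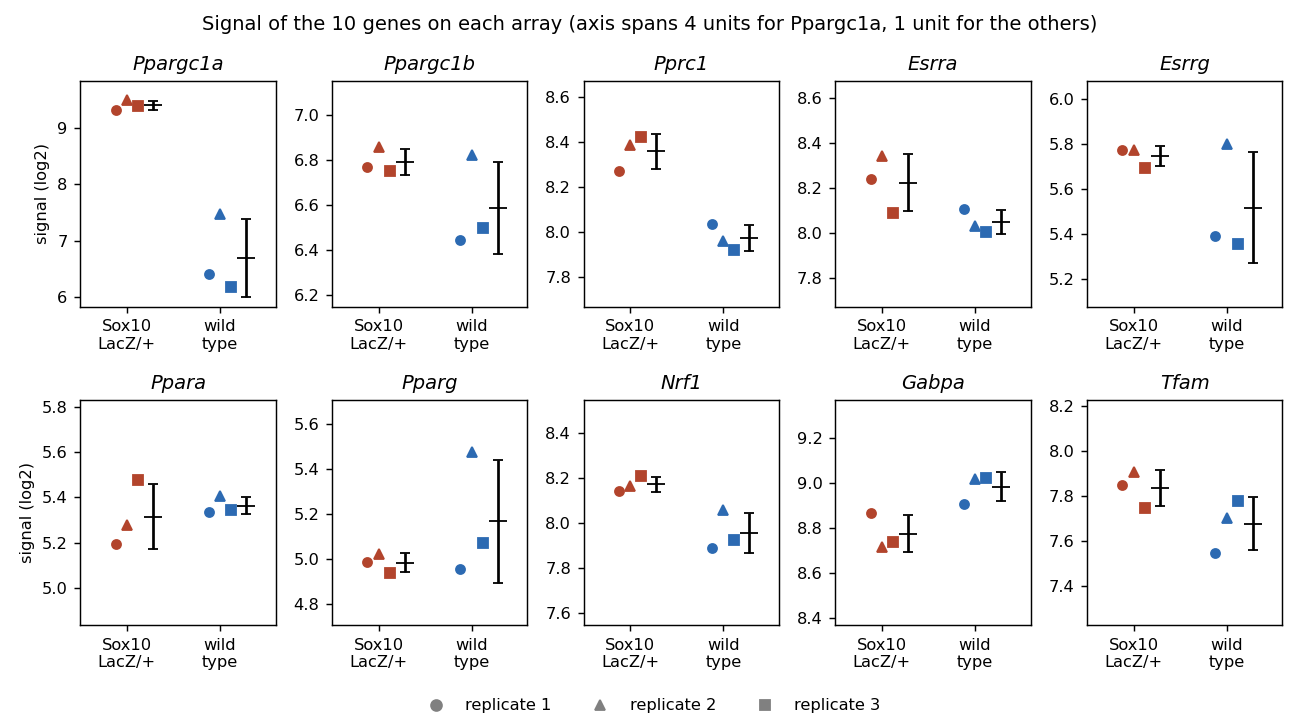
Signal (log2, vertical axis) of each of the 10 genes on the 3 heterozygous (Sox10 LacZ/+, left) and 3 wild-type arrays (right), 1 point an array with the symbol giving the replicate number, and the mean with its SD as a bar. Ppargc1a lies between 9.32 and 9.49 on the heterozygous arrays and between 6.18 and 7.48 on the wild-type arrays, while the other genes have overlapping or closely spaced arrays.

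Ppargc1a lies on chromosome 5 (51454249 to 52115853, GRCm38.p6). RefSeq promoter windows were found for 9 of the 10 genes. The 250 bases before the annotated start are shown for Ppargc1a and Pprc1, the genes that passed, and for Tfam, the classical target of the family. They come from RefSeq (GRCm38.p6), run 5′ to 3′ on the gene's own strand, and lie at chr5:51567726-51567975 (minus strand), chr19:46056289-46056538 (plus strand) and chr10:71238045-71238294 (minus strand). Capitals mark matches to the motifs searched, on both strands. The Ppargc1a and Tfam windows lie inside the annotated spans of their genes (Tfam at 71225468 to 71238328), which reach further upstream, and the Pprc1 window overlaps the first bases of its gene's span. The arrays do not tell which start was used.
Ppargc1a: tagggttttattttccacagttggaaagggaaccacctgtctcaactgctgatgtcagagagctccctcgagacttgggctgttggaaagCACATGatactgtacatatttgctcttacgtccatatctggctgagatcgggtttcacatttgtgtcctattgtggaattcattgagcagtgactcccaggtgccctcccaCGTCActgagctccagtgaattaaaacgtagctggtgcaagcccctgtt
Pprc1: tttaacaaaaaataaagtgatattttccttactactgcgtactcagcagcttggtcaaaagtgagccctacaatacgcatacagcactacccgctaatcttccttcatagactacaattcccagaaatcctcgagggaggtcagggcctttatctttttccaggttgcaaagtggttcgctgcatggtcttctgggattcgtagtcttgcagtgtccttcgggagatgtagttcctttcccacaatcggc
Tfam: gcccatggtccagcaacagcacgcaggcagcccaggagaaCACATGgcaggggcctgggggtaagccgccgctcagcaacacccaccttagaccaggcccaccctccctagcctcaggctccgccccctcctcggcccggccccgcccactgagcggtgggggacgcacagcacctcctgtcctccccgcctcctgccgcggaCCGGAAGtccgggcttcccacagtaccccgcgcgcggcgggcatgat

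The motifs were the E-box cores CATGTG and CACGTG, bound by MITF and its relatives, the cAMP response element core TGACG, the GABP and ETS core CCGGAAG, the NRF1 core GCGCATGCG, the estrogen-related receptor core AAGGTCA and the SOX core ACAANG. In the Ppargc1a window, CATGTG was matched once, on the reverse strand from 160 bases before the start, and TGACG once, on the reverse strand from 49 bases before it. Of all 32851 windows of that length, 12.3% held CATGTG and 17.8% held TGACG. The Tfam window held CCGGAAG from 47 bases before the start, found in 6.91% of windows, and also CATGTG. The Pprc1 window held none of these letters. A match describes the sequence and does not show binding.

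The other coactivators moved less. Pprc1, which encodes a relative of PGC-1 alpha that is induced by serum, had signals of 8.27, 8.39 and 8.42 on the heterozygous arrays, against 8.03, 7.96 and 7.92 on the wild-type arrays. The lines did not overlap. Its difference was 0.39 (SE 0.08, interval 0.21 to 0.56, adjusted p 0.013), a 1.31-fold higher signal. The call was lost without heterozygous replicate 2 (0.37, adjusted p 0.063) or 3 (0.36, adjusted p 0.072), and the gene lies on chromosome 19.

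Ppargc1b, which encodes PGC-1 beta, had signals of 6.77, 6.86 and 6.75 on the heterozygous arrays, against 6.44, 6.82 and 6.50 on the wild-type arrays. Wild-type replicate 2 lay inside the range of the heterozygous line and the other wild-type arrays below it. The difference of 0.20 (interval −0.05 to 0.46, adjusted p 0.306) did not pass, and without wild-type replicate 2 it was 0.32 (adjusted p 0.021).

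The unequal change of Ppargc1a and its relatives was measured within each array. The log2 ratio of Ppargc1a to Ppargc1b differed between the lines by 2.51, and that of Ppargc1a to Pprc1 by 2.32. Both had an exact 2-sided permutation p of 0.1 (n = 3 each), the smallest that 20 regroupings allow. The ratio of Pprc1 to Ppargc1b differed by 0.18, with an exact permutation p of 0.3 (n = 3 each).

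Of the 10 genes, 2 passed, both higher in the heterozygous line, and 8 did not. Across all genes 13.4% passed in either direction and 7.46% passed as higher, so 2 of 10 is a description of these genes, which were named with earlier results of the data known. These shares of all genes include dim genes, while 9 of the 10 had a mean over the arrays above the dim level. With dim genes left out, 1741 genes were higher and 1389 lower, against 1654 and 1313 with them. The share of brighter genes that passed was not computed. Past 2-fold was 1 of the 10, where 3.53% of all genes passed at that size. In 4 of the 10 the 2 lines had no overlapping arrays, against 31.6% of all genes. The difference was above 0 in 7 and below 0 in 3. The median difference was 0.19, beside 0.001 over all genes. Without wild-type replicate 2, 5 of the 10 passed, all higher, namely Ppargc1a, Pprc1, Ppargc1b, Esrrg and Nrf1. Without that array 10.4% of all genes passed as higher, 2308 in number, so calls became more frequent across the table too. Without heterozygous replicate 2 or 3, 1 of the 10 passed, and 4.41% and 4.46% of all genes passed as higher.

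**Figure D2:**
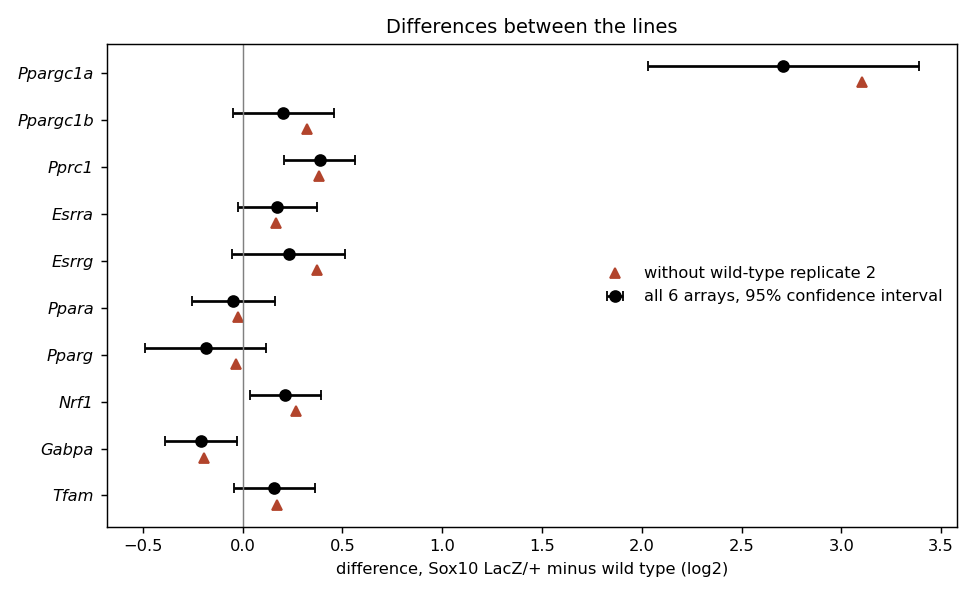
Log2 difference, heterozygous minus wild type (horizontal axis), of the 10 genes with the 95% confidence interval of the fit on all 6 arrays (black), and the same difference without wild-type replicate 2 (triangles). Ppargc1a stands at 2.71, or 3.10 without that array, and the other 9 genes lie between −0.21 and 0.39.

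Of the partner receptors, 0 of 4 passed by limma, and 0 had an unadjusted p below 0.05, although Esrrg passed without wild-type replicate 2. Esrra encodes the estrogen-related receptor alpha, a main partner of PGC-1 alpha at genes of oxidative metabolism. Its signal was 8.24, 8.34 and 8.09 on the heterozygous arrays, against 8.11, 8.03 and 8.01 on the wild-type arrays, with overlap at the third heterozygous array. The difference was 0.17 (interval −0.03 to 0.37, adjusted p 0.27). Esrrg, which encodes the related receptor gamma of oxidative muscle and heart, had 5.77, 5.77 and 5.69 on the heterozygous arrays, against 5.39, 5.80 and 5.36 on the wild-type arrays. Wild-type replicate 2 was the highest of the 6. The difference of 0.23 (interval −0.05 to 0.51, adjusted p 0.3) became 0.37 without that array (adjusted p 0.0096).

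The PPAR genes among the 10, Ppara and Pparg, showed little signal. Ppard, the PPAR gene outside the 10, singled out after its values were seen, was bright in both lines. Its mean was 9.57 in heterozygous and 9.69 in wild-type cells, a difference of −0.12 that did not pass. Ppara, which encodes the receptor that turns on fatty acid oxidation in liver, had 5.19, 5.28 and 5.48 on the heterozygous arrays, against 5.34, 5.41 and 5.35 on the wild-type arrays. These values are close to the 40th percentile of 5.20, and the difference of −0.05 (interval −0.25 to 0.16, adjusted p 0.817) turned to 0.014 without heterozygous replicate 1. Pparg, which encodes the receptor that drives fat cell differentiation, had 4.99, 5.02 and 4.94 on the heterozygous arrays, against 4.96, 5.48 and 5.07 on the wild-type arrays. All but wild-type replicate 2 lay below the 40th percentile. Its difference was −0.19 (interval −0.49 to 0.12, adjusted p 0.453), and −0.03 without that replicate.

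The DNA-binding partners Nrf1 and Gabpa differed in opposite directions, and neither passed. Nrf1, which encodes nuclear respiratory factor 1, had 8.14, 8.17 and 8.21 on the heterozygous arrays, against 7.89, 8.06 and 7.93 on the wild-type arrays. The lines did not overlap, and the difference was 0.21 (interval 0.04 to 0.39, unadjusted p 0.023, adjusted p 0.12). Nrf1 lies on chromosome 6 (30047985 to 30153458), where brighter genes had a median difference of 0.24, against −0.03 to 0.03 for the other autosomes and X. On that chromosome 20.6% of genes passed as higher, against 6.71% elsewhere. Minus the chromosome's median, the Nrf1 difference was −0.03. Without wild-type replicate 2 it passed (0.26, adjusted p 0.035), before that subtraction. Pparg lies on the same chromosome, and its difference minus the median was −0.43. That median is of brighter genes, while Pparg is dim, and its difference without wild-type replicate 2 was −0.03 before the subtraction.

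Gabpa encodes the DNA-binding subunit of GABP, also called nuclear respiratory factor 2, an ETS factor. Its signal was 8.87, 8.72 and 8.74 on the heterozygous arrays, against 8.91, 9.02 and 9.03 on the wild-type arrays, without overlap. The difference was −0.21 (interval −0.39 to −0.03, unadjusted p 0.029, adjusted p 0.14), and its adjusted p lay between 0.091 and 1 over the alternatives. Its partner subunit genes Gabpb1 and Gabpb2, picked for this comparison after their values were seen, differed by 0.15 and −0.01 and did not pass.

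Tfam had 7.85, 7.91 and 7.75 on the heterozygous arrays, against 7.55, 7.70 and 7.78 on the wild-type arrays. The third array of each line fell inside the other's range. The difference of 0.16 (interval −0.05 to 0.36, adjusted p 0.326) corresponds to a 1.12-fold signal with an interval of 0.969 to 1.28. The upper bound for Tfam lay below the lower bound of 4.08-fold for Ppargc1a.

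Wild-type replicate 2 was the highest wild-type array in 6 of the 10 genes. It exceeded the mean of wild-type replicates 1 and 3 by 1.18 in Ppargc1a, 0.46 in Pparg, 0.43 in Esrrg, 0.35 in Ppargc1b, 0.15 in Nrf1 and 0.06 in Ppara. In Esrra, Pprc1, Tfam and Gabpa it lay −0.02, −0.02, 0.04 and 0.05 from that mean. The SD of Ppargc1a was 0.69 among wild-type and 0.08 among heterozygous arrays, beside a median SD per gene of 0.12 and 0.08 for the lines.

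The genes whose pattern over the 6 arrays was most like that of Ppargc1a were Ruvbl1 (Pearson r 0.9999), Pdia5 (0.9997) and Ica1 (0.9995). The differences of these genes were 0.81, 1.45 and 0.84, and Ruvbl1 and Ica1 lie on chromosome 6. In each, wild-type replicate 2 was the highest wild-type array and lay below every heterozygous array. Most like Pprc1 were Pck2 (r 0.998), Tango2 (0.998) and Ambra1 (0.996), with differences of 0.41, 0.28 and 0.20. These correlations rest on 6 arrays that fall into 2 lines, and describe likeness only.

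**Figure D3:**
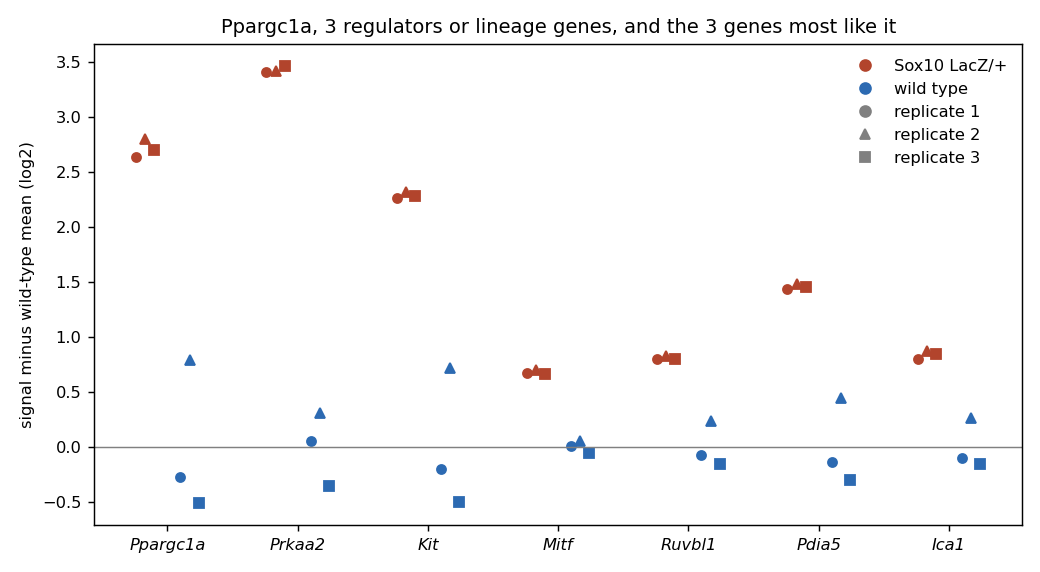
Signal minus the wild-type mean (log2, vertical axis) on each heterozygous (Sox10 LacZ/+, red, left) and wild-type array (blue, right) for Ppargc1a, the kinase subunit gene Prkaa2, the melanocyte genes Kit and Mitf, and the 3 genes most like Ppargc1a, with the symbol giving the replicate number. Wild-type replicate 2 exceeded the mean of wild-type replicates 1 and 3 by 1.18 in Ppargc1a, 1.07 in Kit and 0.46 in Prkaa2, and by 0.08 in Mitf.

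Among 27 known upstream regulators of the coactivators 5 rose, 2 fell and 20 did not pass, with a median difference of 0.02. The share that passed was 25.9%, beside 13.4% of all genes, dim ones included. All 27 had means above the dim level in both lines. Prkaa2, which encodes the alpha 2 catalytic subunit of AMP-activated kinase, an enzyme that phosphorylates PGC-1 alpha, had the largest difference of the list. Its signal was 9.31, 9.32 and 9.37 on the heterozygous arrays, against 5.96, 6.21 and 5.55 on the wild-type arrays. The difference was 3.43 (SE 0.15, adjusted p 3.4e-06). The gene of the other catalytic subunit, Prkaa1, singled out after its value was seen, differed by 0.04 and did not pass.

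Mitf had 11.53, 11.56 and 11.53 on the heterozygous arrays, against 10.87, 10.92 and 10.81 on the wild-type arrays. Its difference was 0.67 (SE 0.07, adjusted p 0.00044), and it too lies on chromosome 6. Camk2d, a calcium-dependent kinase gene, fell by 0.95, and Ppp3ca, which encodes a calcineurin catalytic subunit, rose by 0.92 (adjusted p 0.013) but lost its call without any 1 heterozygous array (adjusted p 0.0519 to 0.0536). The remaining members that passed, named after their values were seen, were the transcription factor gene Mef2a (0.44), the kinase subunit gene Prkag2 (0.35) and the melanocortin receptor gene Mc1r (−0.41). Leaving out any array except wild-type replicate 2 ended the calls of Prkag2 and Mc1r (adjusted p 0.0596 to 0.098 and 0.0517 to 0.0959). With any 1 heterozygous array left out, 3 of the list were higher and 1 lower. Calls also fell across the table in these fits, to 979 to 1013 genes higher and 779 to 804 lower.

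Of 15 genes of the coactivator complex and its co-repressors 2 rose, 1 fell and 12 did not pass, with a median of 0.03. That is a share of 20%, beside 13.4% of all genes. The steroid receptor coactivator gene Ncoa1 rose by 0.72 (SE 0.08, adjusted p 0.00048). Zfp746, which encodes a repressor of Ppargc1a and lies on chromosome 6, rose by 0.38, and Lpin1, which encodes a lipid phosphatase that also acts as a PGC-1 alpha partner, fell by 0.66. Zfp746 passed in no fit that left out an array other than wild-type replicate 2 (adjusted p 0.0569 to 0.0889), and Lpin1 did not pass once wild-type replicate 1 or any 1 heterozygous array was dropped (0.0665 to 0.104). Without wild-type replicate 2, 6 members of this list were higher and 1 lower. Calls rose across the table too, from 1654 to 2308 genes higher (7.46% to 10.4%) and from 1313 to 1914 lower.

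Of 18 other partner receptors and factors 3 rose and 15 did not pass, a share of 16.7% beside 13.4% of all genes. The median was 0.02. Thrb, a thyroid hormone receptor gene, rose by 1.15 (SE 0.09, adjusted p 0.00011), the glucocorticoid receptor gene Nr3c1 by 0.40 and the retinoid X receptor gene Rxra, whose protein pairs with the PPARs, by 0.30. Nr3c1 did not pass when heterozygous replicate 1 was dropped (adjusted p 0.0508), and Rxra without any array but wild-type replicate 2 (0.0693 to 0.122). Without wild-type replicate 2, 3 of these genes were higher and 3 lower, in a fit where 2308 of all 22180 genes were higher and 1914 lower.

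Genes that the coactivators are known to raise passed at shares that are read beside the 13.4% of all genes, dim ones included. Of 28 nuclear genes for respiratory chain subunits 2 rose and 26 did not pass, a share of 7.14%. The 2 were Ndufa4 (0.44, SE 0.08, adjusted p 0.007), which encodes a subunit of cytochrome c oxidase, and the complex I gene Ndufa9 (0.41, SE 0.09, adjusted p 0.024). Both lie on chromosome 6, which holds 3 of the 28, and 0 of the 25 on other chromosomes passed by limma, while the whole list had 4 higher and 2 lower at an unadjusted p below 0.05. That count of 0 is a near one. Cox7a2, a cytochrome c oxidase gene on chromosome 9 singled out after its values were seen, differed by 0.26 (adjusted p 0.0522), and it passed after median centring (0.042), after quantile normalization (0.039), with dim genes left out (0.031), with array weights (0.045) and with a variance trend (0.016). With that trend Sdha passed too, and without wild-type replicate 2 Uqcrfs1 passed and Cox7a2 did not. The median was 0.07 and the range −0.21 to 0.44. Ndufa9 did not pass once wild-type replicate 1 or any 1 heterozygous array was dropped (adjusted p 0.0565 to 0.103).

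Of 17 genes of the tricarboxylic acid cycle 2 rose and 15 did not pass, a share of 11.8%, with a median of 0.04. Suclg2 and Suclg1 encode subunits of succinyl-CoA ligase, and both lie on chromosome 6. Suclg2 had 10.76, 10.73 and 10.79 on the heterozygous arrays, against 8.90, 9.04 and 9.12 on the wild-type arrays. Its difference of 1.74 (SE 0.08, adjusted p 4.3e-06) far exceeded the chromosome's median of 0.24. Suclg1 rose by 0.42 (adjusted p 0.047) and passed with no single array left out except wild-type replicate 2 (otherwise 0.0719 to 0.167).

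Of 19 genes for maintenance and transcription of mitochondrial DNA 1 fell, 0 rose and 18 did not pass, a share of 5.26%, with a median of 0.09. Top1mt, the mitochondrial topoisomerase gene, fell by 0.60 (adjusted p 0.022) and lost its call without any 1 heterozygous array (0.075 to 0.0815). At an unadjusted p below 0.05, 2 of this list were higher and 2 lower. With wild-type replicate 2 left out, 1 was higher and 2 lower, beside 2308 higher and 1914 lower of all 22180 genes.

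**Figure D4:**
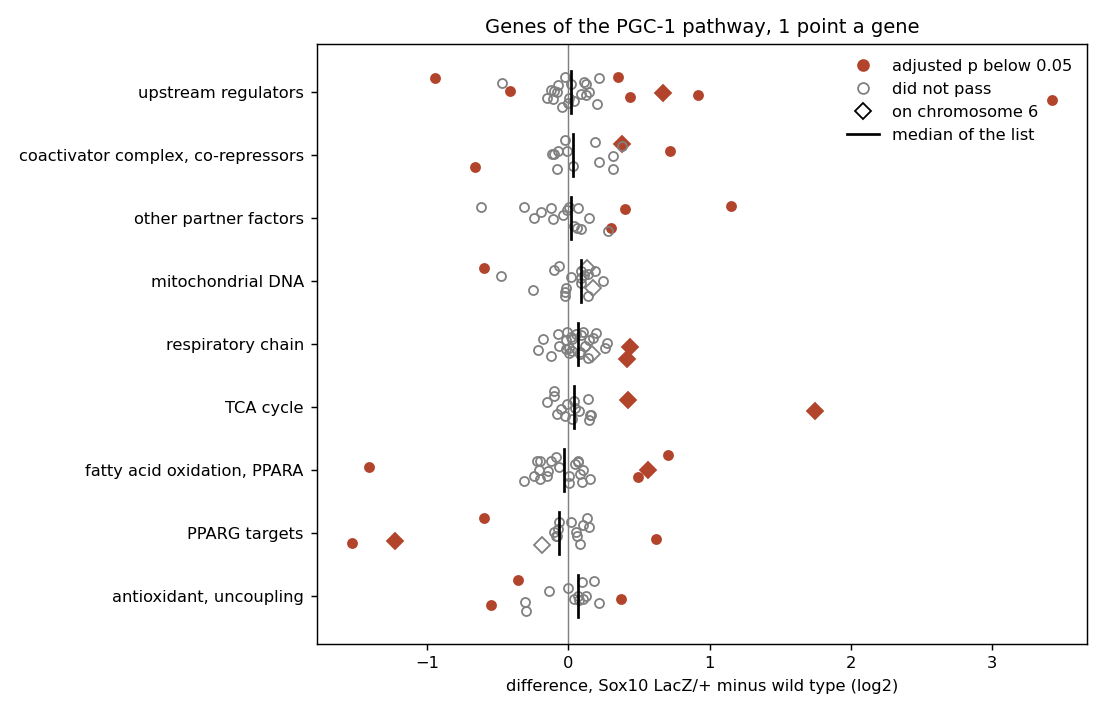
Log2 difference, heterozygous minus wild type (horizontal axis), of each measured gene in 9 lists of the PGC-1 pathway, with genes past an adjusted p of 0.05 filled, genes on chromosome 6 as diamonds and the list median as a bar. The medians lie between −0.06 and 0.09, and both respiratory chain genes and both TCA cycle genes that passed are diamonds.

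Of 24 genes for fatty acid oxidation or known as PPARA targets 3 rose, 1 fell and 20 did not pass, with a median of −0.03. The share of 16.7% is near the 13.4% of all genes, which also passed in both directions (7.46% higher and 5.92% lower). Ehhadh, a peroxisomal oxidation enzyme and PPARA target in liver, fell by 1.41 (SE 0.11, adjusted p 0.00011). The rises were Cpt1c, a carnitine palmitoyltransferase gene mostly known from brain (0.71), Pdk4, whose kinase restrains pyruvate oxidation (0.57), and the short-chain dehydrogenase gene Acads (0.50). Pdk4 lies on chromosome 6. Cpt1c did not pass once wild-type replicate 3 or any 1 heterozygous array was dropped (adjusted p 0.0556 to 0.0754).

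Of 17 known PPARG target genes 1 rose, 3 fell and 13 did not pass, a share of 23.5% beside 13.4% of all genes. The median was −0.06. The falls were Gpd1, a glycerol phosphate dehydrogenase gene (−1.53, SE 0.13, adjusted p 0.00016), the monoacylglycerol lipase gene Mgll (−1.22, SE 0.16) and the lipid droplet gene Plin2 (−0.60, SE 0.07). Mgll lies on chromosome 6. Cebpa, a transcription factor gene of fat and myeloid cells, rose by 0.62 (adjusted p 0.02) and lost its call without heterozygous replicate 2 or 3 or wild-type replicate 1 or 3 (0.0576 to 0.0848). Its mean was 5.94 in heterozygous and 5.32 in wild-type cells, the latter close to the dim level. In each line the mean of 10 of the 17 exceeded that level.

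Of 15 antioxidant, uncoupling and mitochondrial dynamics genes linked to PGC-1 alpha 1 rose, 2 fell and 12 did not pass, with a median of 0.07. That is a share of 20%, where 13.4% of all genes passed. The adenine nucleotide carrier gene Slc25a4 rose by 0.38 (adjusted p 0.021), and the glutathione peroxidase gene Gpx1 and the mitofusin gene Mfn1 fell by 0.55 and 0.36. Slc25a4 lost its call without any 1 heterozygous array (adjusted p 0.059 to 0.0897) and Mfn1 without heterozygous replicate 3 (0.0517).

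Ppargc1a, Esrrg and Pparg are best known from fat and muscle, and markers of these and other cell types were measured beside them. Of 8 adipocyte markers 0 passed by limma, and 0 had an unadjusted p below 0.05. The mean of these markers lay between 4.83 and 4.92 on the heterozygous arrays and between 4.92 and 4.95 on the wild-type arrays. Plin1 and Retn, the brightest of them, differed by −0.08 and −0.15. The fat cell hormone gene Adipoq, singled out after its values were seen, was dim in both lines at 4.36 and 4.31. Adipoq, Cidea, Cidec, Fabp4, Plin1 and Ucp1 are also among the PPARG targets above, so these lists overlap. Of 10 striated muscle markers Tnnt2 rose (0.72, SE 0.07), a share of 10% where 13.4% of all genes passed. The list's mean was 6.38 to 6.45 on the heterozygous arrays and 6.33 to 6.34 on the wild-type arrays.

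Some fibroblast and smooth muscle markers differed between the lines, and most did not pass. Of 10 fibroblast markers 4 rose, 0 fell and 6 did not pass, a share of 40% beside 13.4% of all genes. The median difference was 0.18. Those that rose were Dcn (5.92), Pdgfrb (4.08), Fbln1 (3.18) and Col1a2 (1.24). Of the others, named after their values were seen, Col1a1 differed by −0.20 (unadjusted p 0.029, adjusted p 0.14), Thy1 by −0.14, Lum by −0.10, Col3a1 by 0.10, Pdgfra by 0.15 and Fap by 0.22. The list's mean signal, 7.14 to 7.20 on the heterozygous arrays and 5.70 to 5.80 on the wild-type arrays, thus rests on a few genes.

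Of 10 endothelial and smooth muscle markers 4 rose, 0 fell and 6 did not pass, a share of 40% beside 13.4% of all genes. The median difference was 0.18. Those that rose were Acta2 (5.34), Tagln (0.94), Cnn1 (0.44) and Vwf (0.38). Cnn1 and Vwf were weak, with means of 5.80 and 5.94 in heterozygous and 5.35 and 5.56 in wild-type cells. The others were named after their values were seen. The smooth muscle myosin gene Myh11 and the desmin gene Des differed by −0.06 and 0.14. The endothelial genes Pecam1, Cdh5, Kdr and Tek differed by 0.14, 0.23, 0.002 and −0.07. The list's mean was 6.43 to 6.51 on the heterozygous arrays and 5.68 to 5.75 on the wild-type arrays. Dropping heterozygous replicate 1 ended the call of Cnn1 (adjusted p 0.0528), and that of Vwf ended without heterozygous replicate 2 or 3 or wild-type replicate 1 (0.0683 to 0.0923).

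Of 9 leukocyte markers Cd68 rose (1.32), with means of 5.27 to 5.29 and 5.19 to 5.23. That is a share of 11.1%, where 13.4% of all genes passed. Of 9 keratinocyte markers, with means of 5.14 to 5.22 and 5.11 to 5.28, 0 passed by limma, and 2 had an unadjusted p below 0.05, 1 in each direction. The brightest, Cdh1 and Krt10, differed by 0.38 and −0.15, and Cdh1 passed without wild-type replicate 2 (adjusted p 0.01). Of 11 melanocyte markers 2 rose, Kit (2.29, SE 0.27) and Mitf, and 4 fell, among them Tyr (−2.10), Gpr143 (adjusted p 0.01) and Oca2 (−0.88). Mitf, on chromosome 6, is also counted among the upstream regulators that rose. The share that passed was 54.5%, and the list means were 10.89 to 10.93 and 10.92 to 11.27. The part of other cells in the Ppargc1a difference was not tested.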

How the data were processed

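RNA of 6 melanocyte samples was measured on 1-colour Affymetrix arrays. The authors deposited log2 values made with RMA, per the labels, a method that subtracts background, brings arrays to a common distribution and summarises probes into probe sets. The submitters' processing notes also name Partek, without a version. Values were used without further scaling. Of 41345 probe sets, 23521 carry 1 gene symbol, 1814 several and 16010 are not listed with a gene. Taking the brightest probe set per gene left 22180 genes, of which 1082 had several. Positions come from RefSeq (GRCm38.p6), through Entrez identifiers matched for 23328 probe sets.

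The lines were compared over all genes with limma (version 3.58.1, R version 4.3.3, lmFit then eBayes at its default prior, 2-sided, Benjamini-Hochberg over all genes, threshold 0.05). Differences are heterozygous minus wild type. On simulated data with 22180 genes, 85% of log2 changes of 1 and 100% of those of 2 were recovered, and 6 unchanged genes were called. Recovery of changes below 1 was not measured. An array gives no counts, so the number of arrays limits the precision. Arrays with the same replicate number did not deviate together (r 0.007, 0.016 and −0.004), so no replicate block was used. Genes named beside the 10 are up to 4 of each list that passed, by size of difference, or the 2 brightest if none passed, and the 3 most correlated with each of the 10 that passed. Other genes, apart from Sox10 and the sex-linked genes, were named after their values were seen. The 10 genes, the lists and the alternatives were chosen with earlier results of these data known, and lists were described without a set test. Alternatives were other scalings, filters, probe set rules, limma settings and thresholds, and each array left out in turn.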

Additional observations from a re-analysis of the deposited data

How the results depend on the processing

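Ppargc1a passed in all 16 alternatives with a test, at differences of 2.45 to 3.10 and adjusted p of 1.9e-06 to 0.0058; minus its chromosome's median it was 2.69. Pprc1 lost its call without heterozygous replicate 2 or 3 and against a 1.2-fold minimum (0.39, adjusted p 0.7), and ranged from 0.36 to 0.43 with single arrays left out. Of the 10 genes, 2 passed; with single arrays left out 1 to 5 were higher and 0 lower, and 1 was higher at an adjusted p below 0.01 or against the 1.2-fold minimum. Over all genes, 1654 were higher and 1313 lower, 888 and 700 at an adjusted p below 0.01, and 688 and 551 against the 1.2-fold minimum. With single arrays left out, 979 to 2308 were higher and 779 to 1914 lower. Ppara ranged from −0.13 to 0.014 with single arrays left out, reversing to 0.014 without heterozygous replicate 1. Nrf1 passed with array weights (0.25, adjusted p 0.041). With the replicate block 1381 genes were higher and 1131 lower, and 2 of the 10 passed. Rxra (adjusted p 0.071), Ndufa9 (0.057) and Slc25a4 (0.052) lost their calls. No other named gene that was followed through the alternatives lost its call. Among those not followed were the genes most like Ppargc1a and Pprc1 and the sex-linked genes. Of the 28 respiratory chain genes 2 were higher, 3 after median centring or quantile normalization and 1 to 3 with single arrays left out. Suclg1 did not pass after quantile normalization (adjusted p 0.072). Counts without chromosome 6 were chosen after the data were seen, and gave 2 of the 10, and 1407 higher and 1278 lower. Precision is limited by 3 arrays a line, and for Pparg and Ppara by signals near the level called dim. Esrrg was also weak, with means of 5.75 in heterozygous and 5.51 in wild-type cells, beside array medians of 5.72 to 5.78.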
